A study of Mus musculus with 6 samples.

Results

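The distal block of mouse chromosome 10 described here consists of the protein-coding genes that start between 108100000 and 127300000 on chromosome 10 in the deposited table (GRCm38 coordinates). Mdm2, Cdk4, Ddit3, Lgr5 and Tspan8 were left out by name, as were names beginning Nduf, Mrpl, Mrps, Rpl, Rps, Cox or Atp5, of which the window held 0. This left 108 member genes of 54532 genes in the table, and 67 of the 108 passed the filter on low counts. The window was selected on the read levels themselves, namely on neighbouring genes deviating together between these libraries, so each deviation of a library from the mean of all 6 is a description of how the members were chosen and was not tested.

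The 6 libraries came from untreated Balb/c mice that bore 2208L, a mammary tumour passed on by transplantation. For the 3 libraries of the group CTC, tumour cells from the circulation were propagated, starting from blood. For the 3 of the group PT, tumour cells were enriched once the primary tumour had been dissociated. The labels match each PT library to the CTC library of the same number, so that numbers 1, 2 and 3 stand for 3 mice. Propagation was described for CTC and not for PT, so handling and group cannot be told apart, and in such bulk samples more cells of a kind and more RNA per cell cannot be told apart either.

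Library totals ranged from 23845953 to 27897320 counts. The epithelial genes Epcam, Krt8, Krt18 and Cdh1 summed to between 1971 and 4777 CPM (counts relative to library size, scaled between libraries by TMM), whereas Ptprc, the pan-leukocyte gene CD45, had at most 7 counts in a library. Of the other marker lists, the macrophage list summed to between 58.9 and 487 CPM, most of it from Cd14, with C1qa, C1qb and Adgre1 at 0. The fibroblast list reached 164 CPM and the adipocyte list 349 CPM, both in CTC replicate 3. Most of this came from single genes, Col3a1 at 125 CPM and Fabp4 at 347 CPM, with Pdgfra at 38.7 CPM. In that library Col1a1 and Dcn were at 0.430 and 0.391 CPM, and Plin1 and Cidec at 1.21 and 1.37 CPM. Col1a2, Lum, Adipoq and Lep had 0 counts there. The leukocyte list stayed at or below 26.2 CPM and the endothelial list at or below 3.02 CPM.

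The members do not form a pathway. They are neighbours with unrelated tasks: chaperoning actin and tubulin, exporting tRNA, processing messenger RNA, moving membranes, adding or removing ubiquitin, and relaying growth factor signals. The matching human segment is well known in cancer biology because MDM2, CDK4, HMGA2, FRS2 and YEATS4 lie in it and are gained together in some sarcomas and gliomas. Neither DNA copy number nor chromatin was measured in these libraries.

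The members were highest in CTC replicate 1, second highest in CTC replicate 2, and lowest in PT replicates 1 and 3. On the log2 CPM scale the median deviation of the 67 tested members from the mean of all libraries was 0.91 in CTC replicate 1, 0.50 in CTC replicate 2 and -0.10 in CTC replicate 3. It was -0.75 in PT replicate 1, 0.05 in PT replicate 2 and -0.62 in PT replicate 3. The corresponding medians over all 13874 genes tested lay between -0.03 and 0.04. CTC replicate 3 and PT replicate 2, which come from different mice, both stayed near the mean, and their signs were not stable: the median of CTC replicate 3 was above 0 without CTC replicate 1 (0.11) or 2 (0.02), and that of PT replicate 2 below 0 without PT replicate 1 (-0.09) or 3 (-0.06).

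**Figure D1:**
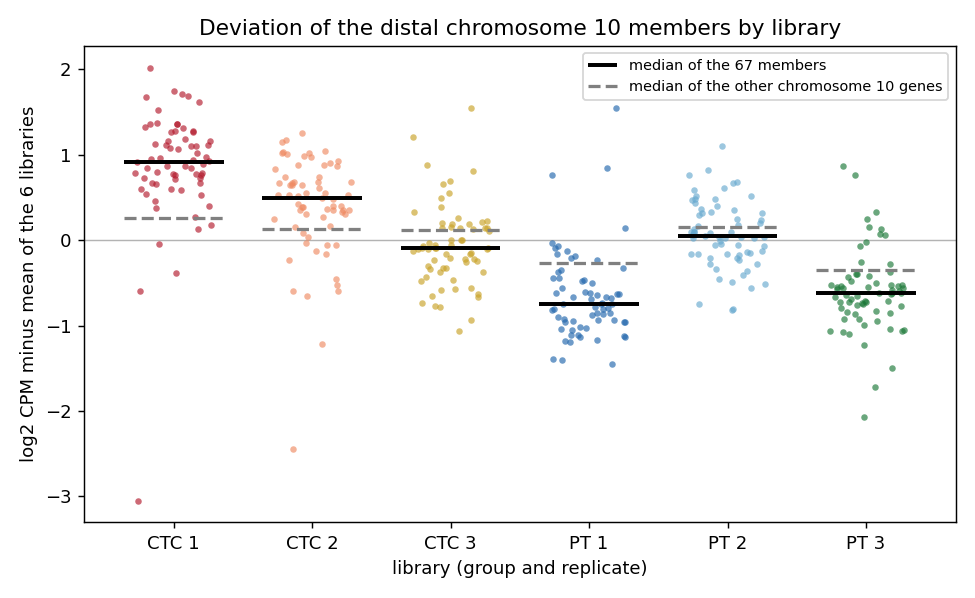
Each point is 1 of the 67 tested members, plotted as its log2 CPM in a library minus its mean over the 6 libraries, by library on the horizontal axis. Solid bars are member medians and dashed bars the medians of the other 515 tested protein-coding genes of chromosome 10. The member medians run from 0.91 in CTC replicate 1 to -0.75 in PT replicate 1.

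Counted gene by gene, 57 of the 67 members lay more than 0.5 above the mean in CTC replicate 1, against 23.8% of all genes tested. Only 2 lay more than 0.5 below it there (background 20.6%). In CTC replicate 2, 33 members lay above by that much (background 13.4%) and 6 below (background 17.9%). In CTC replicate 3 the counts were 7 above (background 18.3%) and 11 below (background 11.3%). In PT replicate 1, 47 members lay more than 0.5 below the mean (background 21.4%) and 3 above (background 20.9%). PT replicate 2 had 9 above (background 15.8%) and 5 below (background 13.2%), and PT replicate 3 had 2 above (background 15.4%) and 49 below (background 16.6%). Of the 67, 60 had their highest value in CTC replicate 1 or 2 (background 38.3%) and 61 their lowest in PT replicate 1 or 3 (background 38.7%). These counts describe the choice of the window, and nothing is read from their distance to the background.

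As a share of all reads, the 108 members took 0.988% of the counts in CTC replicate 1 (95% Wilson interval 0.985 to 0.992%) and 0.814% in CTC replicate 2 (0.810 to 0.817%). The share was 0.486% in CTC replicate 3 (0.483 to 0.489%). In PT it was 0.318% (0.316 to 0.320%), 0.551% (0.549 to 0.554%) and 0.341% (0.339 to 0.343%) in replicates 1, 2 and 3. The group means were 0.763 ± 0.255% in CTC and 0.403 ± 0.129% in PT (SD, n = 3 each), and PT replicate 2 exceeded CTC replicate 3. These intervals hold counting error alone, since no molecular identifiers were read and reads need not be separate molecules. Per kilobase of gene length the most abundant members were Cct2 at 325 CPM per kb (mean of 6 libraries), Nap1l1 at 95.9, Rap1b at 74.3 and Mars at 62.9.

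The members were sorted into 6 lists by role, with 3 to 15 tested members each, and in each list the median was highest in CTC replicate 1 and lowest in PT replicate 1 or 3. Over all 67 tested members, 63 lay above their mean in CTC replicate 1 and 63 below it in PT replicate 1. Of all 13874 genes these were 7282 and 7201. In CTC replicate 2, 54 members lay above, against 7103 of all genes. In CTC replicate 3 and PT replicate 3, 43 and 59 members lay below, against 6569 and 6896. Counts by list thus restate the choice of the window. For the values below, libraries are always given in the order of replicates 1, 2 and 3, in TMM-scaled CPM.

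The list of RNA processing, translation and nuclear transport also held Cct2 and Bbs10, which are not genes of these roles. All 11 of its tested members lay above their mean in CTC replicate 1 and 10 of 11 below it in PT replicate 1. Cct2, a subunit of the TRiC chaperonin that folds actin and tubulin (ENSMUSG00000034024, chromosome 10, 117051001 to 117063814), was at 1361, 1595 and 506 CPM in the CTC libraries and 363, 727 and 431 CPM in the PT libraries. CTC replicates 1 and 2 stood above all other libraries, and CTC replicate 3 lay below PT replicate 2. Xpot, the export receptor for tRNA, was at 291, 275 and 172 CPM in the CTC libraries and 92.1, 176 and 116 CPM in the PT libraries, again with CTC replicate 3 below PT replicate 2. Nup107, a scaffold protein of the nuclear pore, was at 211, 232 and 99.2 CPM in the CTC libraries and 56.5, 121 and 78.0 CPM in the PT libraries. Mettl1, which methylates tRNA, was at 78.8, 64.7 and 24.5 CPM in the CTC libraries and 26.2, 47.4 and 21.6 CPM in the PT libraries, and here CTC replicate 3 was lower than PT replicate 1 as well. Krr1, needed for the small ribosomal subunit, was at 102, 52.4 and 40.8 CPM in the CTC libraries and 19.3, 47.3 and 28.9 CPM in the PT libraries, and Llph was at 157, 119 and 50.4 CPM in the CTC libraries and 32.5, 54.7 and 37.9 CPM in the PT libraries. Cpsf6, a subunit of the factor that sets the cleavage site of messenger RNA (ENSMUSG00000055531, chromosome 10, 117344673 to 117380015), hardly varied, at 127, 108 and 124 CPM in the CTC libraries and 87.8, 119.7 and 111 CPM in the PT libraries. The nearest tested members on both sides, Yeats4 and Slc35e3, each varied more, with log2 ranges over the 6 libraries of 1.40 and 2.07 against 0.53 for Cpsf6.

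The promoters of 2 members that followed the block and of 1 that ran against it are printed to show the starts of these genes. Sequences are from RefSeq (GRCm38.p6), 250 bases before to 50 after the annotated start nearest to the deposited 5′ end, read 5′ to 3′ on the gene's strand, with CG dinucleotides in capitals.
Cct2 promoter, chr10:117063803-117064102, minus strand: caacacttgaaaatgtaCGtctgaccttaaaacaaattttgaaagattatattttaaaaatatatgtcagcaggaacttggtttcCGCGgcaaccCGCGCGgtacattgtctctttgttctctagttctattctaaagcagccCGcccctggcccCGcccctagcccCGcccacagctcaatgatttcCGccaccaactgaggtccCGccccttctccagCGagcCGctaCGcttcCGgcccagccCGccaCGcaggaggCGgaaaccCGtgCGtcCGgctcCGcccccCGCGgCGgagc
Rab21 promoter, chr10:115315542-115315841, minus strand: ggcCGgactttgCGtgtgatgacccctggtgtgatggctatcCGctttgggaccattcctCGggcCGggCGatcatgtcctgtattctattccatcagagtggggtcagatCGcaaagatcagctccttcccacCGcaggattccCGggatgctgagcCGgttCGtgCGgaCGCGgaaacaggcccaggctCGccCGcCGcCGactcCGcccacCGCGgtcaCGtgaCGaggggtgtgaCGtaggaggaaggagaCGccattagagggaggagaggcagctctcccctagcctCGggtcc
Wif1 promoter, chr10:121033754-121034053, plus strand: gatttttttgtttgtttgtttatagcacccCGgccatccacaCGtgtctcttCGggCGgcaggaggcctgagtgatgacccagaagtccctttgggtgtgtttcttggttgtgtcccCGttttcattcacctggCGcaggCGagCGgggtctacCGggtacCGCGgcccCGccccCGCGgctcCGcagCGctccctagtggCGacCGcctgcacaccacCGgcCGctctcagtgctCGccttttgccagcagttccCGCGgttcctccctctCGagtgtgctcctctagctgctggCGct
These held 25, 26 and 25 CG dinucleotides, and the promoter of Ppm1h, which departed from the block, held 17. A promoter was matched for 51 of the 67 tested members, of which 48 (94.1%) held at least 10 CG dinucleotides, against 85.8% of 8800 tested protein-coding genes and 43.5% of all 32851 promoters in the RefSeq table. Of 25 matched members below the low-count filter, 9 (36.0%) did. CG was counted as the letters CG, which read the same on both strands.

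Among the members of chromatin and the cell cycle, Nap1l1, a histone chaperone (ENSMUSG00000058799, chromosome 10, 111473223 to 111498150), was at 867, 735 and 336 CPM in the CTC libraries and 181, 489 and 266 CPM in the PT libraries. CTC replicates 1 and 2 again lay above every PT library while CTC replicate 3 lay below PT replicate 2. Hmga2, an architectural chromatin protein of embryonic and tumour cells (ENSMUSG00000056758, chromosome 10, 120361275 to 120476469), was at 213, 324 and 194 CPM in the CTC libraries and 80.7, 188 and 148 CPM in the PT libraries, and its highest library was CTC replicate 2 and not 1. All CTC libraries of Hmga2 were above all PT libraries, though CTC replicate 3 and PT replicate 2 were close. Yeats4, a reader of acetylated histones, was at 82.8, 65.0 and 35.8 CPM in the CTC libraries and 31.4, 62.1 and 34.2 CPM in the PT libraries, and E2f7, a repressor of E2F target genes, was at 92.9, 71.6 and 33.0 CPM in the CTC libraries and 27.6, 31.2 and 33.0 CPM in the PT libraries. For E2f7, CTC replicate 3 lay among the PT libraries. All 13 tested members of this list, in which Mars was also counted, had a positive log2 fold change, and 0 of them passed the test described below.

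**Figure D2:**
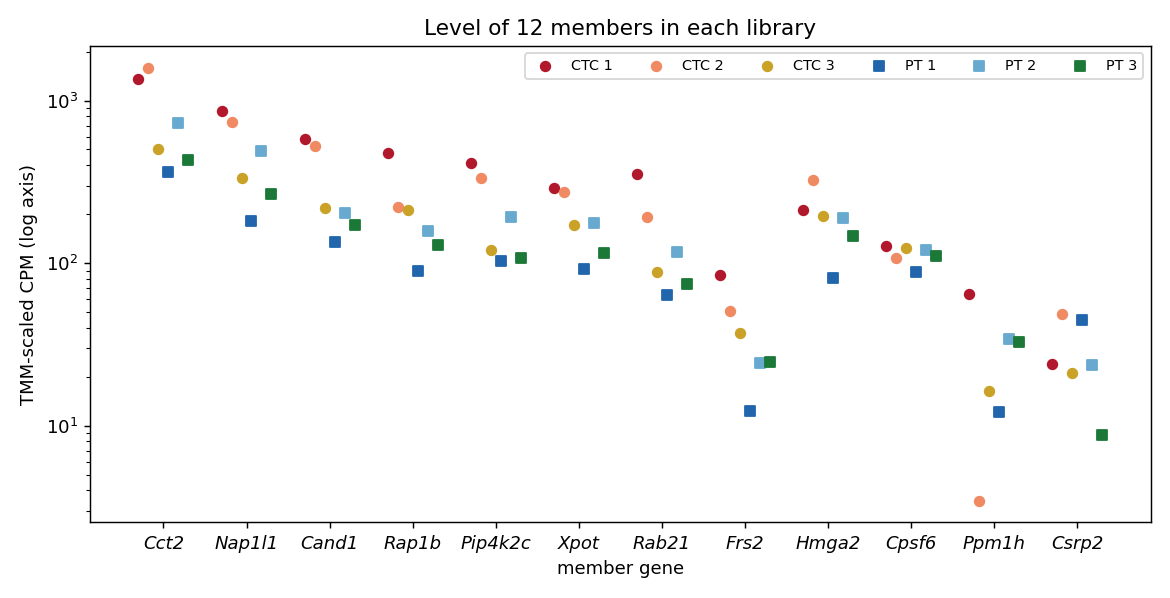
Level of 12 members in each library, in TMM-scaled CPM on a log axis, with circles for CTC and squares for PT. For Cct2 and Nap1l1 the 2 highest points are CTC replicates 1 and 2, whereas Cpsf6 is nearly level and Ppm1h is lowest in CTC replicate 2 at 3.46 CPM.

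Of the signalling members, Rap1b, a small GTPase that acts on integrins (ENSMUSG00000052681, chromosome 10, 117813871 to 117846035), was at 476, 220.0 and 213 CPM in the CTC libraries and 90.0, 158 and 129 CPM in the PT libraries. Frs2, the docking protein that couples FGF receptors to RAS signalling (ENSMUSG00000020170, chromosome 10, 117069427 to 117148534), was at 84.6, 51.1 and 37.1 CPM in the CTC libraries and 12.3, 24.5 and 24.8 CPM in the PT libraries. In both genes CTC replicate 1 stood far above the rest, PT replicate 1 was lowest and the groups did not overlap. Ppp1r12a, the targeting subunit of myosin phosphatase, was at 134, 66.8 and 60.5 CPM in the CTC libraries and 27.3, 50.1 and 38.5 CPM in the PT libraries, also without overlap. Dyrk2, a kinase that phosphorylates p53, was at 38.5, 31.3 and 23.5 CPM in the CTC libraries and 11.2, 16.9 and 17.6 CPM in the PT libraries. Tbk1, a kinase of innate immune signalling, departed from the block at 79.2, 36.9 and 61.1 CPM in the CTC libraries and 20.0, 44.0 and 41.3 CPM in the PT libraries: CTC replicate 2 lay below PT replicates 2 and 3. Phlda1, a growth factor-induced gene, was at 167, 79.5 and 83.6 CPM in the CTC libraries and 58.1, 142 and 53.6 CPM in the PT libraries, with PT replicate 2 as its second-highest library. Within this list 13 of 15 tested members lay above their mean in CTC replicate 1, but only 8 of 15 in CTC replicate 2.

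The protein turnover and folding list holds 7 members, all tested, 6 of them with a positive log2 fold change. Cand1, which exchanges the substrate receptors of cullin ubiquitin ligases (ENSMUSG00000020114, chromosome 10, 119199255 to 119240055), was at 581, 526 and 218 CPM in the CTC libraries and 134, 202 and 172 CPM in the PT libraries, without overlap between groups. Usp15, a deubiquitinase, was at 191, 101 and 62.6 CPM in the CTC libraries and 45.3, 97.4 and 43.4 CPM in the PT libraries, where PT replicate 2 lay above CTC replicate 3. All 7 were above their mean in CTC replicates 1 and 2 and all 7 below it in CTC replicate 3 and in PT replicate 3. March9, a membrane-bound ubiquitin ligase, had PT replicates 1 and 2 as its highest libraries, at 53.5, 39.6 and 16.9 CPM in the CTC libraries and 59.8, 60.0 and 15.1 CPM in the PT libraries.

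In the membrane and transport list, 14 of 15 tested members lay above their mean in CTC replicate 1 and all 15 below it in PT replicate 1. Rab21, an endosomal GTPase of integrin traffic (ENSMUSG00000020132, chromosome 10, 115287084 to 115315594), was at 352, 192 and 88.7 CPM in the CTC libraries and 63.6, 117 and 74.6 CPM in the PT libraries. Pip4k2c, a phosphoinositide kinase, was at 410.0, 333 and 120.4 CPM in the CTC libraries and 103, 192 and 108 CPM in the PT libraries, and Osbpl8, a lipid transfer protein, at 75.3, 30.3 and 22.7 CPM in the CTC libraries and 12.6, 23.7 and 13.8 CPM in the PT libraries. In all 3 genes CTC replicates 1 and 2 were highest, PT replicate 1 was lowest, and PT replicate 2 lay above CTC replicate 3. B4galnt1, which makes the gangliosides GM2 and GD2, was at 198, 255 and 62.3 CPM in the CTC libraries and 76.8, 121 and 51.7 CPM in the PT libraries, with CTC replicate 2 highest. The list also holds Tbc1d30, whose 3 CTC libraries were all below its PT libraries, at 4.30, 4.09 and 4.34 CPM in the CTC libraries and 4.49, 9.06 and 10.4 CPM in the PT libraries.

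Several members followed the block weakly or not at all. Of the tested members with a mean of at least 8 CPM, the 5 with the lowest deviations in CTC replicate 1 were Rassf3 (-0.59), Csrp2 (-0.04), Ctdsp2 (0.13), Cpsf6 (0.18) and Hmga2 (0.27). Rassf3 and Csrp2 thus lay below their mean there, and the other three above it by less than the members' median. Rassf3, a RAS-association protein, was at 47.6, 65.8 and 93.5 CPM in the CTC libraries and 52.7, 109 and 80.0 CPM in the PT libraries, lowest in CTC replicate 1. Csrp2, a LIM-domain protein of smooth muscle, was at 24.0, 48.5 and 21.2 CPM in the CTC libraries and 44.6, 23.7 and 8.71 CPM in the PT libraries, so that PT replicate 1 was its second-highest library. Ctdsp2, a small phosphatase that acts on RNA polymerase II, was at 191, 185 and 201 CPM in the CTC libraries and 148, 223 and 118 CPM in the PT libraries, a log2 range of 0.91. Ppm1h, a phosphatase of Rab proteins (ENSMUSG00000034613, chromosome 10, 122678762 to 122945795), had the largest log2 range of the members with a mean of at least 8 CPM (4.19), at 64.7, 3.46 and 16.4 CPM in the CTC libraries and 12.1, 34.1 and 32.8 CPM in the PT libraries. It was highest in CTC replicate 1 but lowest in CTC replicate 2. Msrb3, a methionine sulfoxide reductase, was at 82.6, 16.0 and 46.3 CPM in the CTC libraries and 9.20, 14.3 and 31.7 CPM in the PT libraries: CTC replicate 1 was highest and PT replicate 1 lowest, with CTC replicate 2 near the PT libraries. Wif1, a secreted Wnt inhibitor expressed at 2.38 CPM on average, ran opposite at 0.106, 0.584 and 4.42 CPM in the CTC libraries and 4.41, 3.22 and 1.54 CPM in the PT libraries, and only 3 counts were found in CTC replicate 1.

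Across the 6 libraries, the correlation of a member with the median of the other members had a median of 0.92 and ranged from -0.80 (Wif1) to 0.98 (Cnot2, a subunit of the CCR4-NOT deadenylase). It was over 0.9 for 36 of 67 members and below 0 for 3, namely Wif1, Tbc1d30 and Rassf3. The points share their libraries and depth, and the window was chosen for this likeness, so the values are descriptions without a p-value.

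Between the groups, no member passed the main edgeR test for a difference, which did not use the pairing by mouse. Nav3 was called under other settings, given below. The question of the comparison is how cells recovered from blood differ from the primary tumour of the same mouse. edgeR's quasi-likelihood test, adjusted by Benjamini-Hochberg over 13874 genes, called 0 of 67 members higher and 0 lower in CTC, where 0% of all genes were called in either direction. The smallest adjusted p among members was 0.726, shared by 45 of them. At an unadjusted p under 0.05 it gave 30 members higher (background 3.32%) and 0 lower (background 3.31%). DESeq2 called 0 members higher (background 0.241%) and 0 lower (background 0.283%), and at an unadjusted p under 0.05 gave 29 higher (background 2.51%) and 0 lower (background 2.31%). With the mice as a replicate block, edgeR called 0 members in either direction (background 0%), and 25 higher (background 3.29%) and 0 lower (background 3.21%) at an unadjusted p under 0.05. With the same block, DESeq2 called 1 member higher (background 0.864%), Nav3, whose adjusted p of 0.050 lay just under the threshold, and 0 lower (background 0.973%). At an unadjusted p under 0.05 that fit gave 34 higher (background 2.64%) and 1 lower (background 2.95%). DESeq2 was run without the low-count filter. Its adjusted shares are over 16603 genes without the block and 13774 with it. Its unadjusted shares are over 27148 and 27331 genes, which include genes below the filter that all 67 members passed. Because the window was found from differences between these same libraries, the counts at unadjusted p are not independent of its choice.

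The log2 fold change, CTC minus PT, was positive for 63 of 67 members, as it was for 7504 of all 13874 genes tested, with medians of 0.91 and 0.05. All CTC libraries lay above all PT libraries for 20 members (background 5.95%) and below for 1, Tbc1d30 (background 6.16%). Nav3, a microtubule-binding neuron navigator protein (ENSMUSG00000020181, chromosome 10, 109681259 to 110456204), was at 59.4, 26.8 and 22.1 CPM in the CTC libraries and 8.17, 10.9 and 12.6 CPM in the PT libraries, or 36.1 ± 20.3 CPM over CTC against 10.6 ± 2.25 over PT (SD, n = 3 each), which edgeR fitted as a log2 difference of 1.77 (SE 0.45). The groups did not overlap, but CTC replicate 1 alone held more than the other CTC libraries together. Frs2 averaged 57.6 ± 24.4 CPM over CTC against 20.5 ± 7.13 over PT, with a fitted difference of 1.49 (SE 0.42). Cand1 averaged 442 ± 196 CPM over CTC against 169 ± 33.9 over PT, with a fitted difference of 1.38 (SE 0.40). Cct2, the most abundant member, averaged 1154 ± 574 CPM over CTC against 507 ± 193 over PT, with a fitted difference of 1.19 (SE 0.48), and its groups overlapped.

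Within each matched mouse the size of the difference varied. In mouse 1 the members were higher in CTC than in PT by a median of 1.71 on the log2 scale (quartiles 1.15 and 2.09), with 62 of 67 higher (background 52.6%). In mouse 2 the median difference was 0.44 (quartiles 0.01 and 0.81), with 50 of 67 higher (background 49.6%). In mouse 3 it was 0.49 (quartiles 0.29 and 0.73), with 61 of 67 higher (background 49.5%). CTC was above PT in all 3 mice for 46 members (background 15.4%) and below in all 3 for 1 (background 15.3%). Differences above 1 were found for 52 members in mouse 1 (background 20.0%), 11 in mouse 2 (background 8.25%) and 6 in mouse 3 (background 10.2%).

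**Figure D3:**
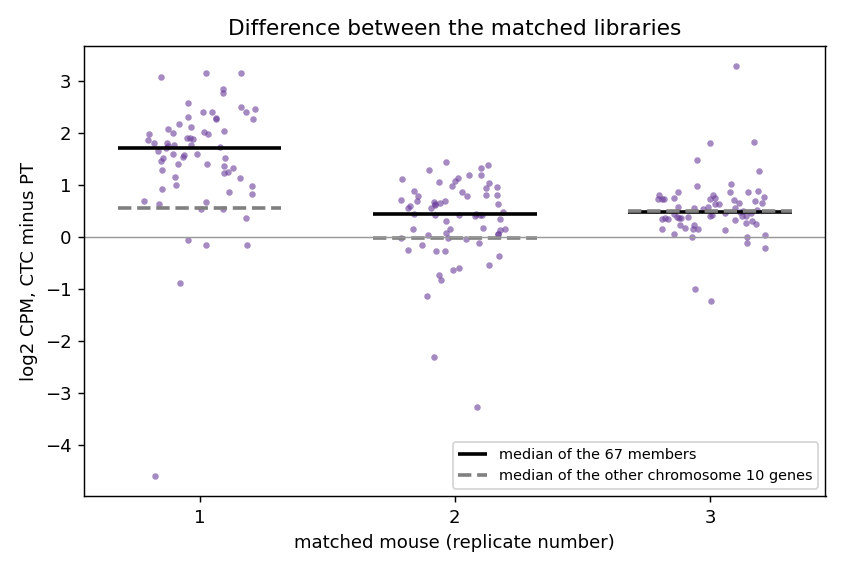
Each point is the log2 CPM of 1 tested member in CTC minus PT of the same mouse, with mice on the horizontal axis. Solid bars are member medians (1.71, 0.44 and 0.49) and dashed bars the medians of the other chromosome 10 genes (0.56, -0.02 and 0.49), which in mouse 3 coincide with the members.

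The rest of chromosome 10 gave a background for these differences. Over the other 515 tested protein-coding genes of the chromosome the median CTC minus PT difference was 0.56, -0.02 and 0.49 in mice 1, 2 and 3. In mouse 3 the members thus had the same median as their chromosome. The deviations of those genes from the mean of all libraries had medians of 0.26, 0.13 and 0.11 in CTC and -0.27, 0.16 and -0.35 in PT, with the same signs as the members except in CTC replicate 3. Over the other 19 chromosomes (the autosomes and X), medians ranged from -0.40 to 0.38 in CTC replicate 1 and from -0.38 to 0.41 in PT replicate 1. In PT replicate 3 they ranged from -0.21 to 0.34. The -0.35 of the other chromosome 10 genes there lay below every other chromosome, so a low PT replicate 3 was not particular to the members.

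In 2 Mb bins with at least 4 tested protein-coding genes, the 6 bins that lie in the window or at its distal edge had medians between 0.66 and 1.11 in CTC replicate 1. The 36 bins outside ranged from -0.27 to 1.23, so single stretches elsewhere on the chromosome were as high. In PT replicate 1 the corresponding ranges were -0.87 to -0.24 and -1.42 to 0.38. In PT replicate 3 they were -0.75 to -0.32 and -0.83 to 0.04. CTC replicate 2 stayed between 0.35 and 0.59 in all 6 bins, whereas outside it moved between -0.69 and 1.01.

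**Figure D4:**
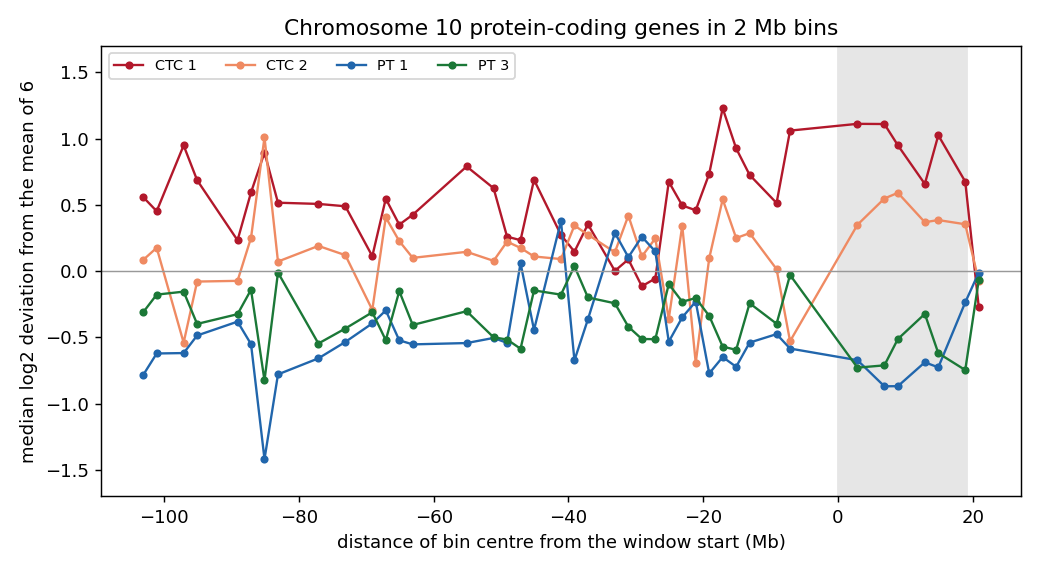
Median log2 deviation from the mean of all libraries of protein-coding genes in 2 Mb bins of chromosome 10, against the distance of the bin centre from the window start, for the 4 libraries whose member medians lay farthest from 0. The shaded part is the window. CTC replicate 1 falls from 0.68 in the bin at the distal edge to -0.27 in the next.

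At the distal edge the members' signs were shared by some of the genes just beyond. The last 3 tested members were Dctn2, a dynactin subunit, Mbd6, a methyl-CpG-binding domain protein, and Mars, the methionyl-tRNA synthetase (ENSMUSG00000040354, chromosome 10, 127296221 to 127311786). They deviated from the mean by 0.73, 0.80 and 0.68 in CTC replicate 1 and by -1.10, -0.77 and -1.06 in PT replicate 3. The first 3 tested genes outside were Gli1, a Hedgehog transcription factor, R3hdm2 and Shmt2, the mitochondrial serine hydroxymethyltransferase. They deviated by -2.52, 0.22 and -0.39 in CTC replicate 1 and by 0.18, -0.15 and -0.65 in PT replicate 3. Of the 10 tested protein-coding genes from the window end to the end of that 2 Mb bin, 4 lay above the mean in CTC replicate 1, and these 4 (R3hdm2, Nxph4, Lrp1 and Nemp1) were also below it in PT replicate 3, where 6 of the 10 were below. Gli1 was read at 0.896 CPM on average, and 0.034 Mb separated its start from that of Mars. The 55 tested protein-coding genes beyond the window had a median of -0.27 in CTC replicate 1, 0.28 in CTC replicate 3, 0.00 in PT replicate 1 and -0.09 in PT replicate 3.

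**Figure D5:**
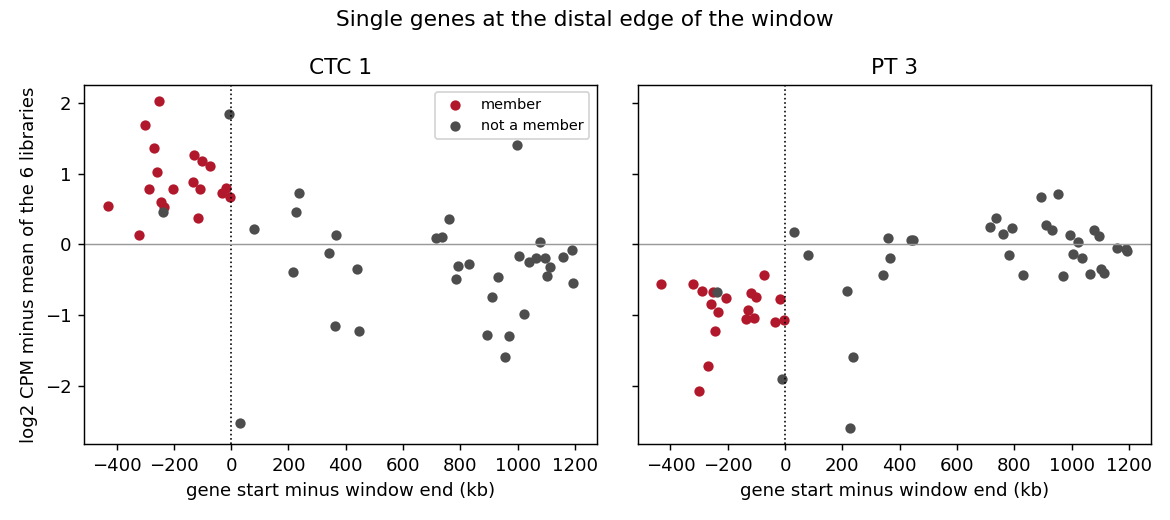
Deviation of single chromosome 10 protein-coding genes from the mean of all libraries at the distal edge, for CTC replicate 1 and PT replicate 3, against the distance of the gene start from the window end in kb. Members (red) lie above 0 in CTC replicate 1 and below 0 in PT replicate 3, and genes beyond the edge lie on both sides of 0 in both libraries.

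At the proximal edge no such step could be placed. The last tested gene outside, Ccdc59, starts 2.32 Mb before Ppp1r12a, the first tested member, and the interval held no tested protein-coding gene. Tmtc2, Mettl25 and Ccdc59, the last 3 outside, deviated by 0.35, -0.38 and -0.09 in CTC replicate 1 and by -1.60, 0.05 and -0.27 in PT replicate 1. Ppp1r12a, Pawr, a pro-apoptotic protein, and Nav3, the first 3 inside, deviated by 1.28, 0.40 and 1.68 and by -1.02, -0.75 and -1.17. The 25 tested genes that start from 94 Mb up to the window had medians of 0.54 in CTC replicate 1 and -0.51 in PT replicate 1, part of the way to the members' values. With each library's trend on GC content removed, these were 0.41 and -0.17, against 0.88 and -0.70 for the members. The limit of 94 Mb matters too. The bins from 90 to 92 and from 92 to 94 Mb had medians of 1.23 and 0.93 in CTC replicate 1 and -0.65 and -0.72 in PT replicate 1.

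Inside the block the members on both sides of a stretch of 3.76 Mb without tested members, from Usp15 to Atp23, differed in which PT library was lowest. This split was made after the values were seen and was not tested. The 48 members before the stretch had medians of 0.95, 0.41 and -0.09 in CTC and -0.80, 0.03 and -0.55 in PT, and PT replicate 1 was lowest for 31 of them (23.1% of all genes tested). The 19 members after it had medians of 0.79, 0.53 and -0.22 in CTC and -0.48, 0.18 and -0.84 in PT, and PT replicate 3 was lowest for 13 (15.6% of all genes tested). Dctn2 is an example, at 397, 385 and 144 CPM in the CTC libraries and 225, 344 and 112 CPM in the PT libraries. The distal 19 also had a higher GC content, with a median of 55.1% over their transcripts against 48.7% for the 48.

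GC content moved with library across the whole table, so its values are given beside the block. All tested genes with a GC content up to 46.1% had medians of 0.39 in CTC replicate 1, -0.20 in CTC replicate 2 and -0.34 in PT replicate 1. The 67 members had a median GC of 50.5% against 50.7% over all genes tested. After each library's trend on GC was removed, the member medians were 0.88, 0.47 and -0.15 in CTC and -0.70, 0.06 and -0.67 in PT. The differences by mouse were then 1.49, 0.50 and 0.47.

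The genes left out by name showed the block to different degrees. Mdm2, the ubiquitin ligase of p53, was at 109, 50.8 and 48.8 CPM in CTC and 20.6, 30.9 and 39.4 CPM in PT, without overlap. Cdk4, the kinase partner of D cyclins, was at 682, 827 and 373 CPM in CTC and 396, 570.0 and 312 CPM in PT. Ddit3, a transcription factor of the stress response, was at 69.1, 20.7 and 13.9 CPM in CTC and 13.3, 36.5 and 5.06 CPM in PT. All 3 were highest in CTC replicate 1 or 2, and Lgr5 and Tspan8 had at most 11 counts in a library. The Ddit3 values are those of ENSMUSG00000025408. A second, overlapping Ddit3 entry (ENSMUSG00000116429) had 0 counts in all 6 libraries, and how reads shared by both were counted is not stated.

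Of the 41 members below the low-count filter, 12 had 0 counts in all 6 libraries, for which 3 counts, at most 0.126 CPM in a library, is the upper limit. Another 15 had between 1 and 10 counts in all, and 14 had more. The lysozyme genes Lyz1 and Lyz2 had 0 and 1 counts, the cytokine genes Il22 and Ifng 0 and 5, and Syt1, a synaptic vesicle protein, 5. Cpm, a membrane carboxypeptidase, was the highest with 83 counts in CTC replicate 3 and at most 12 elsewhere. Slc16a7, a monocarboxylate transporter, had 53 counts in CTC replicate 3 and at most 2 elsewhere.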

How the data were processed

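Whole-number read counts by Ensembl gene, deposited by the authors in 1 table with gene lengths and positions, were the starting point. The submitters' processing notes name HISAT2 and the builds GRCm38 and mm10. For the counter, the versions and the annotation, nothing is given in the sources used here. Per the labels' protocols, 100 ng of total RNA entered an mRNA library kit. Strand handling is not stated, so reads of 16 tested members that overlap another tested gene on the opposite strand (Avil and Tsfm, for example) could not be told apart.

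The members and gene lists were chosen with earlier results of these data known. edgeR (version 4.0.16, R version 4.3.3) was run on the counts with filterByExpr by group, TMM scaling, glmQLFit and glmQLFTest, and Benjamini-Hochberg adjustment with a threshold of 0.05, on all 13874 genes that passed. Standard errors came from the F statistic. Deviations are log2 CPM with a prior count of 2 minus the mean of the 6 libraries; member calls used a limit of 0.5. Per-library values rest on at least 1 count and a median of 712 to 2231 counts per tested member. DESeq2 (version 1.42.0) was an alternative. The tests were tested on simulated data with changes larger than the members' median log2 fold change. That simulation does not show whether changes of the members' size would be called.

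Per the labels and the series design, CTC and PT of 1 number are from matched mice, which makes the numbers pairs. Across genes, the deviations of each pair from the group means had correlations of -0.015, 0.157 and 0.298 in mice 1, 2 and 3. The main fit had no block. Biological replicates are named in the labels, but nothing else is said of how the samples were kept apart, so p-values measure the spread between these samples.

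GC content came from GENCODE M21 transcripts, and 12 tested genes had none. Lowess trends used a span of 0.4. Genes were named by a rule: the 12 members with the largest log2 range and a mean of at least 8 CPM, the 3 most abundant per role list, 3 genes on each side of each edge, the 5 with the lowest deviation in CTC replicate 1 and the 5 names left out. A gene that this rule also names is not reported here. Other members are given as further examples and were chosen after their values were seen. Mars was listed under chromatin and translation, and Cct2 under RNA processing and folding; 5 tested members were in no list.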

Additional observations from a re-analysis of the deposited data

How the results depend on the processing

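The member medians by library kept their signs and moved by less than the spread between libraries of a group under RLE and upper-quartile scaling, scaling without chromosome 10, 3 filters, a prior count of 0.5, a median reference, gene length and GC corrections and the return of the names left out. Over these settings and the split at the gap, CTC replicate 1 lay between 0.79 and 1.03 and PT replicate 1 between -0.80 and -0.48. Leaving out each other library in turn gave 0.77 to 1.01 for CTC replicate 1, 0.36 to 0.64 for CTC replicate 2, -0.88 to -0.56 for PT replicate 1 and -0.79 to -0.48 for PT replicate 3. CTC replicate 3 and PT replicate 2 stayed near 0 but changed sign, at -0.22 to 0.11 and -0.09 to 0.22.

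The number of members called was 0 in edgeR, with the replicate block, under RLE and upper-quartile scaling, with a filter of 1 CPM and without each library in turn. It was 1 without a low-count filter and 1 in DESeq2 with the replicate block (background 0.864%), Nav3 each time. For the fit without a filter no share of all genes called was taken, so that call has no background beside it. The cause of the Nav3 calls was not tested. The median log2 fold change was 0.89 with the replicate block and between 0.69 and 1.20 without 1 library. Members whose groups did not overlap numbered 21, with 20 higher in CTC (background 5.95%) and 1 lower (background 6.16%). Under other scalings they numbered 19 to 22, for which no share over all genes was taken. The GC corrections, the split at the gap and DESeq2 with the block were chosen after seeing the data. Depth limits the 9 tested members below 8 CPM, such as Wif1 and Avil, most.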

Other observations

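Genes of other types in the window were outside the block's rule. Of these, 13 passed the low-count filter, some with few reads, such as Gm4189 with 2 to 16 counts in a library. Of the 13, 12 lay above their mean in CTC replicate 1, against 7282 of all 13874 genes tested. The 13 had median deviations of 0.71, 0.46 and 0.02 in CTC and -0.37, 0.42 and -0.42 in PT. They came from the same libraries and the same window, so they are no separate evidence. 4933412E12Rik, annotated as a bidirectional promoter lncRNA, was at 26.7, 10.5 and 11.1 CPM over CTC and 7.97, 15.2 and 4.65 CPM in PT, highest in CTC replicate 1. Rpl6l, a processed pseudogene resembling a ribosomal protein gene, was at 30.0, 41.4 and 31.0 CPM in CTC and 18.4, 24.0 and 35.7 CPM in PT. Its reads could come from near-identical copies, so its level is uncertain. A730063M14Rik, a lincRNA, was at 1.46, 1.71 and 0.391 CPM in CTC and 0.652, 1.29 and 0.290 CPM in PT.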
